A study of Mus musculus with 48 samples.

Results

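Pcp2, Cbln1, Cbln3, En2, Fat2, Zic1 and Pvalb, genes in use as markers of the cerebellum, were read on the 24 mRNA arrays of the series. They are 7 of the 19752 genes that had a named probe. A probe was given its gene through the RefSeq transcript listed for it, and of several probes for 1 gene the brightest on average was taken. Zic1 and Pvalb had 2 probes each and the other genes 1. The levels were examined in whole brain first. In a whole-brain extract they can depend on how much cerebellum was taken with it, which was not tested here.

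The cerebellar cortex is built from granule cells, by far its most numerous neurons, and from Purkinje cells, its sole output neurons. It also holds molecular-layer and Golgi interneurons. Granule cells make Cbln1, a secreted cerebellin that organizes the synapses of parallel fibres on Purkinje cells, and Cbln3, which is secreted only together with Cbln1. Purkinje cells make Pcp2 (L7), a modulator of G-protein signalling whose promoter is the standard tool for driving transgenes in these cells, and Pvalb, the calcium buffer parvalbumin, which is also made by molecular-layer interneurons and by fast-spiking interneurons of the cerebral cortex. En2 is the homeobox factor that patterns the midbrain and cerebellum, Zic1 a zinc-finger factor of granule cells that is also used outside the cerebellum, and Fat2 a giant protocadherin of granule-cell parallel fibres.

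The arrays held total RNA from male mice in 8 groups of 3, 1 array per sample. WT mice were of strain C57BL/6J, and Tg2576 mice carried Tg(APPSWE)2576Kha, the Swedish mutant of human APP driven by the hamster prion protein promoter, and both were sampled at 10 months, early in Aβ accumulation, and at 17 months, when Aβ has reached its plateau. Each genotype and age was represented by 3 cortices and 3 whole brains. The study obtained WT and Tg2576 mice from different suppliers, so genotype and supplier cannot be told apart, and the labels do not say whether a cortex and a whole brain of the same number came from 1 mouse. Where nothing says that the 3 samples of a group were separate mice, p-values measure only the spread between these samples.

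A log2 level below is the log2 of the background-subtracted signal of a probe minus the 75th percentile of its array, so 0 is the level of a fairly bright probe. Levels of different genes are not compared, since each probe has its own efficiency. The 75th percentiles of the arrays ran from 507 to 824, and between 34155 and 41087 probes were well above background. The 3 Tg2576 whole brains of 17 months were dimmer, at 574, 612 and 507, than the 3 WT ones of that age, at 739, 761 and 642. The genotype labels could not be checked with the transgene, because the probes used for App and Prnp match the mouse transcripts. App lay between 5.77 and 5.82 in WT and between 5.96 and 6.11 in Tg2576 whole brains of 10 months, but between 6.31 and 6.42 in WT and between 6.32 and 6.37 in Tg2576 whole brains of 17 months.

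For 5 of the 7 genes the RefSeq table of promoters (build GRCm38.p6) held a window around a transcription start, and Cbln1 and En2 had no entry. The windows of the genes that varied most between arrays (Pcp2, Cbln3 and Fat2) and of Zic1, the gene with the broadest use, are printed 5′ to 3′ on the strand of the gene, with the start 50 bases before the end. Capitals mark AGGTCA, the half-site read by nuclear receptors such as the Purkinje-cell factor RORα, on either strand. For Pcp2 the most upstream of 4 starts is shown.
Pcp2, chr8:3625498-3625797, minus strand: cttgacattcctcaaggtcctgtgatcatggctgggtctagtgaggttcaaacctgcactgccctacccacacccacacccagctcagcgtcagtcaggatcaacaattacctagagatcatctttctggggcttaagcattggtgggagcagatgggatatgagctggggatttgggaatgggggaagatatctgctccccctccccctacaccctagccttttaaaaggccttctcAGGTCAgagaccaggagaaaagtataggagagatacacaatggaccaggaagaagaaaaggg
Cbln3, chr14:55884207-55884506, minus strand: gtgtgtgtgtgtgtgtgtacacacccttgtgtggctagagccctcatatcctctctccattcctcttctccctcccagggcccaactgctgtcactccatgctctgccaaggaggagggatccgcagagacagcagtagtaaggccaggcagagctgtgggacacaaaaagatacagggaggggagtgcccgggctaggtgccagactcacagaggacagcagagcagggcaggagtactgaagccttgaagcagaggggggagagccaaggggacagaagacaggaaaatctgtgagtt
Fat2, chr11:55312208-55312507, minus strand: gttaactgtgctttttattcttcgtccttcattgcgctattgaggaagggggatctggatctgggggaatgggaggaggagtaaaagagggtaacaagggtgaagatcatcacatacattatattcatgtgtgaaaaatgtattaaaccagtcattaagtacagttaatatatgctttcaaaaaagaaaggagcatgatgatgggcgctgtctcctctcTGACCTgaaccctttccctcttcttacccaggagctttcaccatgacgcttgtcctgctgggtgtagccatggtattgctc
Zic1, chr9:91365719-91366018, minus strand: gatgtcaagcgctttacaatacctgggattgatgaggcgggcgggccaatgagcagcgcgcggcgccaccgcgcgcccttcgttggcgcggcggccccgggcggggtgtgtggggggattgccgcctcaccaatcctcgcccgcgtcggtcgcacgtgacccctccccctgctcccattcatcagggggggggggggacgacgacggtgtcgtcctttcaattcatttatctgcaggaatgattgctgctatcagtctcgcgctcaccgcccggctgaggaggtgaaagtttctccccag
The half-site began 12 bases before the start in Pcp2, on the strand of the gene, and 31 bases before the start in Fat2, on the opposite strand, and neither Cbln3 nor Zic1 held it. It is a common string, present in 16.2% of 32544 promoter windows of the same length. The windows also differed in composition, with 31 CpG pairs in Zic1 against 1 in Pcp2, 2 in Cbln3 and 4 in Fat2, where the median window had 7. Pvalb had 2 starts, without the half-site in either window, and the windows held 5 and 25 CpG pairs. CAGCTG, an E-box, was in none of these windows. These are matches of letters and not sites shown to be used.

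A pair of arrays stood apart from the tissue in their label, and they are named before the results because several comparisons rest on them. The array labelled WT cortex of 17 months, replicate 2, had the highest level of all 12 cortex arrays for 5 of the 7 genes (Pcp2, Cbln1, Cbln3, En2 and Fat2). Its Pcp2 level was 3.17, while the other 11 cortex arrays lay between -1.39 and 0.69. En2 stood at 0.16 there, against -2.70 to -1.13 on the other 11, and Fat2 at 0.11, against -2.39 to -1.96. For 6 of the 7 genes its level fell inside the range of the whole brains. The array labelled Tg2576 whole brain of 10 months, replicate 2, was the opposite case, with the lowest level of the 12 whole-brain arrays for 6 of the 7 genes. Pcp2 stood at -0.79 on it, En2 at -2.33 and Fat2 at -2.55, and for 6 of the 7 genes the level lay inside the range of the 11 other cortex arrays.

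Marker lists of other regions were read on the same 2 arrays. Over the 24 arrays as reference, the mean deviation of 14 granule-cell genes on the WT cortex array was 0.43, the highest in cortex, and that of 19 Purkinje-cell genes 0.55, also the highest in cortex, whereas 19 hindbrain genes outside the cerebellum (Hox genes, serotonergic, noradrenergic and glycinergic genes) stood at -0.45, inside the cortex range of -0.88 to -0.06. On the Tg2576 whole-brain array the granule-cell list stood at -0.25, the Purkinje-cell list at -0.30 and the hindbrain list at -0.73, each the lowest of the 12 whole brains. The 12 genes of the cerebral cortex list, however, read -0.09 on the first array and -0.05 on the second, both inside the range of the whole brains (-0.27 to 0.06) and inside that of the cortices (-0.13 to 0.47). The 10 genes of the striatum list followed the labels, with 0.075 on the WT cortex array, above all 12 whole brains (highest 0.014), and -0.23 on the Tg2576 whole-brain array, below all 12 cortices (lowest -0.11). The thalamus list stood at 0.40 on the WT cortex array, rank 3 of the cortices, and at -0.14 on the Tg2576 whole-brain array, the lowest of the whole brains. The olfactory bulb list stood at -0.90 on the first, rank 9 of the cortices, and at 1.95 on the second, the highest of the whole brains. Whether cerebellum was taken along with that cortex, or left out of that whole brain, or whether samples were exchanged, was not tested. Comparisons that use either array are given with and without it.

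**Figure D1:**
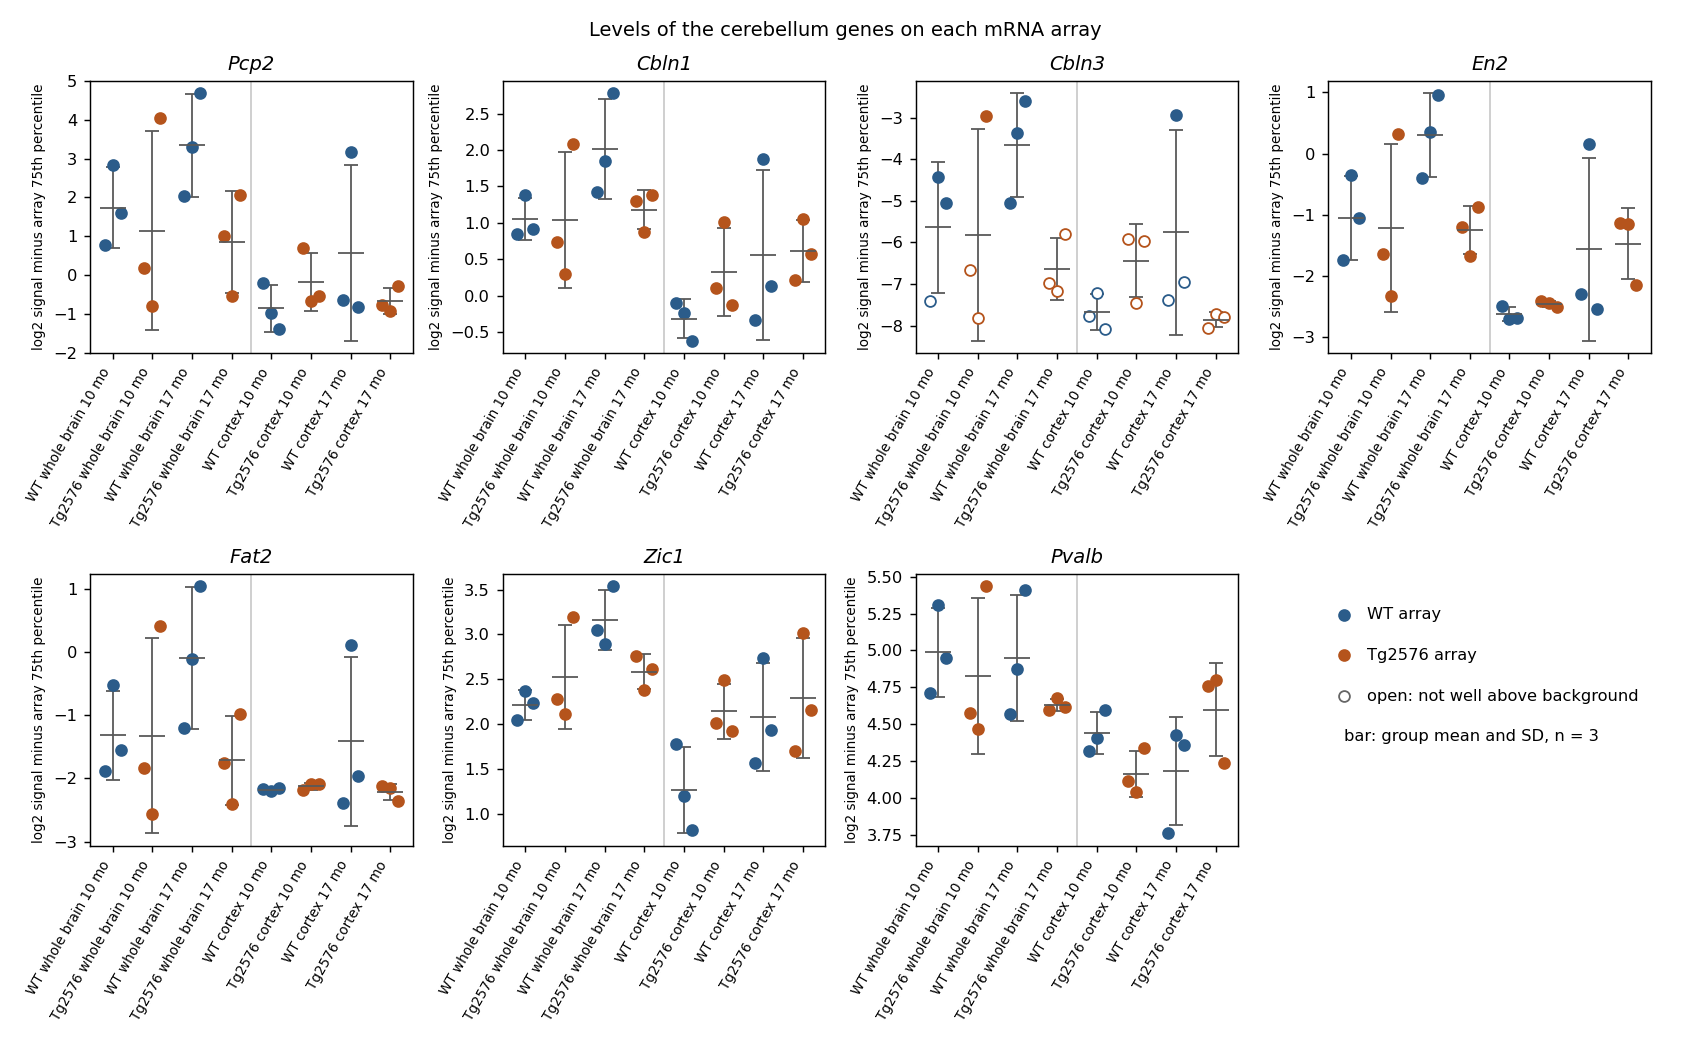
Log2 level of each of the 7 genes (y axis, log2 signal minus the 75th percentile of the array) on each array, by group (x axis), with WT arrays in blue, Tg2576 arrays in orange, open points not well above background, and bars for the group mean and SD (n = 3). Replicate 2 of the WT cortices of 17 months lies far above its 2 fellows for Pcp2 (3.17), Cbln3 (-2.93), En2 (0.16) and Fat2 (0.11), and the 3 Tg2576 whole brains of 10 months span 4.84 log2 units for Pcp2.

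Purkinje cells were read through Pcp2, which differed widely between whole brains of the same group. The Pcp2 level was 0.78, 2.84 and 1.59 in the 3 WT whole brains of 10 months and 2.04, 3.31 and 4.69 in those of 17 months. In Tg2576 whole brains it was 0.17, -0.79 and 4.05 at 10 months and 1.01, -0.55 and 2.07 at 17 months. The highest and the lowest of the 12 whole brains therefore differed 44.5-fold, and the widest spread inside a single group, 4.84 log2 units, was that of Tg2576 mice of 10 months. In the cortex Pcp2 was -0.19, -0.99 and -1.39 in WT and 0.69, -0.68 and -0.55 in Tg2576 mice of 10 months, and -0.66, 3.17 and -0.82 in WT and -0.78, -0.92 and -0.29 in Tg2576 mice of 17 months. Apart from the WT replicate already named, no cortex exceeded 0.69, and 9 of the 12 whole brains did.

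The cerebellins of granule cells followed the same arrays. Cbln1, the synaptic organizer, was 0.85, 1.38 and 0.92 in the WT whole brains of 10 months, 1.43, 1.84 and 2.78 in those of 17 months, 0.74, 0.29 and 2.09 in Tg2576 whole brains of 10 months and 1.30, 0.88 and 1.38 in those of 17 months. All 3 WT whole brains of 17 months lay above all 3 Tg2576 whole brains of that age. In the cortex, where Cbln1 was well above background on all 12 arrays, it ranged from -0.61 to 1.88 with a median of 0.12. Cbln3, its secretion partner, was near the detection limit, and was well above background on 6 of 12 whole brains and on 1 of 12 cortices, the WT replicate that stood apart (-2.93). The 6 whole brains were WT replicates 2 and 3 of 10 months (-4.44 and -5.05), all 3 WT replicates of 17 months (-5.04, -3.37 and -2.60) and Tg2576 replicate 3 of 10 months (-2.95). None of the 3 Tg2576 whole brains of 17 months passed the limit, with signals of -6.97, -7.16 and -5.79 that give only a bound.

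Fat2 and En2 had a flat floor in the cortex, which made the arrays above it easy to see. Fat2, the parallel-fibre protocadherin, lay between -2.39 and -1.96 on 11 cortex arrays. In whole brain it was -1.88, -0.53 and -1.55 in WT and -1.83, -2.55 and 0.40 in Tg2576 mice of 10 months, and -1.20, -0.12 and 1.04 in WT and -1.76, -2.40 and -0.99 in Tg2576 mice of 17 months. Thus 10 of 12 whole brains exceeded the 11 cortices, and the 2 that did not were both Tg2576, replicate 2 of each age. En2, the midbrain and cerebellum homeobox gene, was -1.74, -0.36 and -1.06 in WT and -1.64, -2.33 and 0.31 in Tg2576 whole brains of 10 months. At 17 months it was -0.41, 0.35 and 0.96 in WT and -1.20, -1.67 and -0.88 in Tg2576 whole brains, with no overlap between the genotypes. The En2 floor in the cortex was less even than that of Fat2, with -2.41 to -2.51 in Tg2576 mice of 10 months but -1.13, -1.15 and -2.14 in Tg2576 mice of 17 months.

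Zic1 and Pvalb had the smallest differences between the tissues when averaged over all groups, though not in each pair. Zic1 was 2.04, 2.37 and 2.23 in WT and 2.28, 2.11 and 3.19 in Tg2576 whole brains of 10 months, and 3.05, 2.89 and 3.54 in WT and 2.76, 2.38 and 2.62 in Tg2576 whole brains of 17 months. In the cortex it ranged from 0.82 to 3.02, its highest cortex being Tg2576 replicate 2 of 17 months and not the WT replicate that stood apart (2.74). Pvalb, bright in both tissues, ranged from 4.47 to 5.44 in whole brain and from 3.76 to 4.80 in cortex, and in the WT cortex replicate that stood apart it was 4.43, rank 4 among the 12 cortices. The second, dimmer probe of Zic1 gave smaller differences between the tissues, at 0.49 and 0.40 in WT mice of 10 and 17 months and -0.17 and -0.14 in Tg2576 mice, and so differed in sign from the probe used (0.39 and 0.30) in Tg2576 mice. The second Pvalb probe gave 0.10, 0.53, 0.41 and -0.10 for the same 4 comparisons.

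Ordered by group mean, the WT whole brains of 17 months were the highest of the 8 groups for 6 genes, and the WT whole brains of 10 months (4.99 ± 0.30, SD, n = 3) for Pvalb. Neighbours in this order seldom separated: of 7 neighbouring pairs of groups per gene, all 7 overlapped in their arrays for Pcp2, En2, Fat2 and Pvalb and 6 of 7 for Cbln1, Cbln3 and Zic1. The pairs that did not overlap were the WT and Tg2576 whole brains of 17 months for Cbln1 and Zic1, and for Cbln3 a pair of groups in which no array was well above background.

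**Figure D2:**
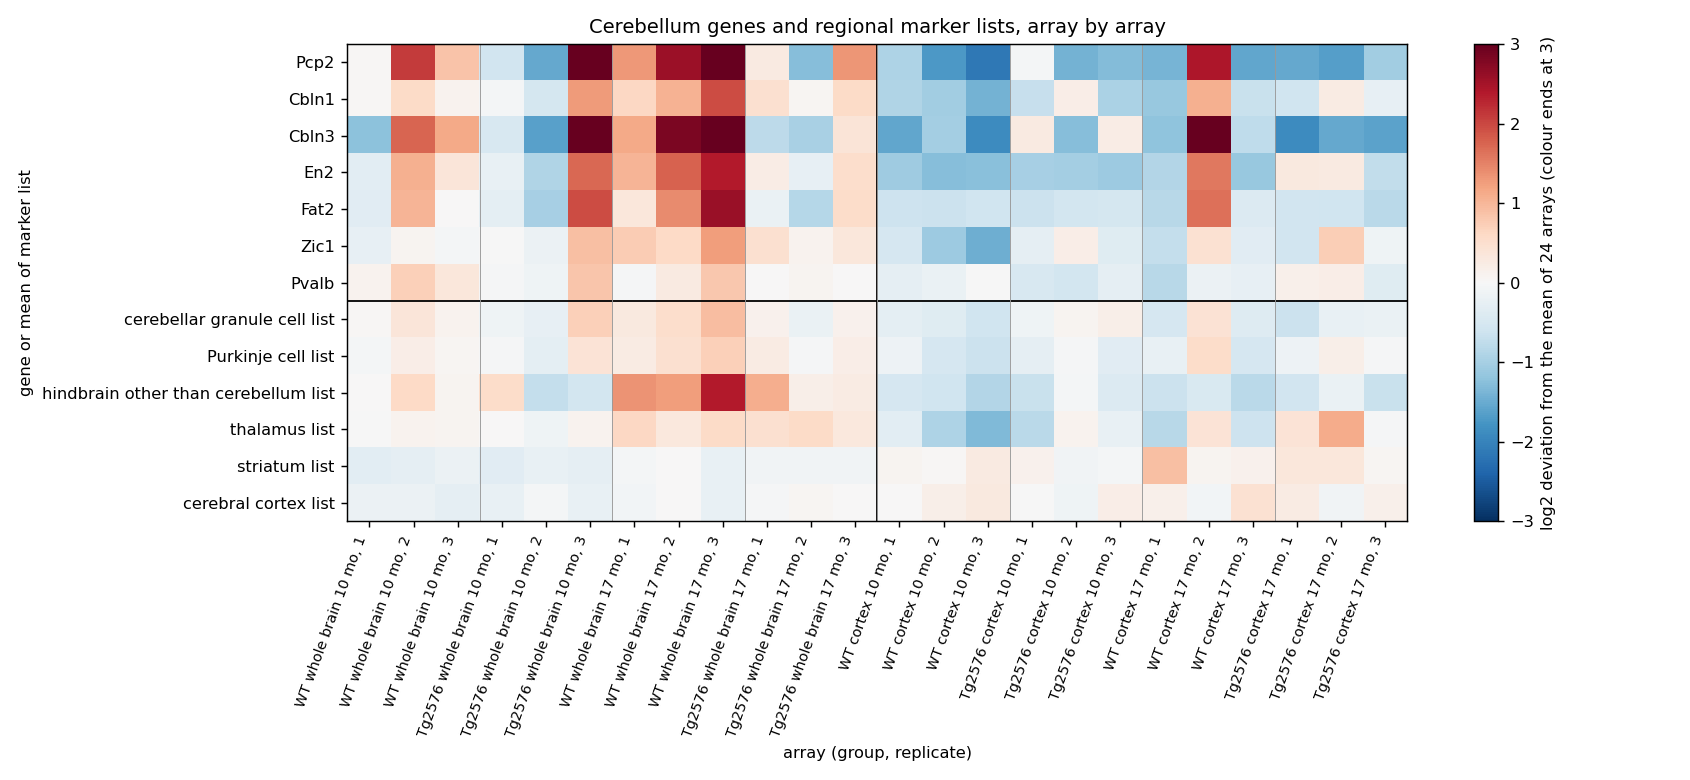
Log2 deviation of each of the 7 genes (upper rows) and of 6 marker lists (lower rows, mean over the genes of the list) from the mean of all 24 arrays (colour), for each array (columns, whole brain on the left, cortex on the right, labelled by group and replicate). On replicate 2 of the WT cortices of 17 months the granule-cell and Purkinje-cell rows and all upper rows except Pvalb are red, and the hindbrain row is at -0.45. These rows do not match on every array. The granule-cell row is above 0 on Tg2576 cortex replicate 3 of 10 months, where Pcp2 is below its mean. The Purkinje-cell row is above 0 on Tg2576 cortex replicate 2 of 17 months, where Pcp2 is also below its mean.

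The first comparison asked how whole brain differed from cortex in these genes. Whole brain was higher than cortex for every gene tested in each of the 4 pairs of genotype and age, by a median of 1.37 log2 units over the 7 genes in WT mice of 10 months, 1.46 in WT mice of 17 months, and 0.75 and 0.40 over the 6 genes tested in Tg2576 mice of 10 and 17 months. The median over all probes lay within 0.02 of 0 in all 4. Only probes that rose well above background on 2 or more of the 3 arrays of either group were tested, and Cbln3 failed this in Tg2576 mice at both ages. In WT mice Cbln3 entered through the whole brains alone at both ages, so its direction there was set in part by the filter. In limma's moderated test on 6 arrays, Benjamini-Hochberg adjusted over all probes, 0 of 7 genes passed 0.05 in WT mice of 10 months, where 0.0101% of all probes did, and all 7 had an unadjusted p under 0.05, as had 11.8% of all probes in the same direction. In 6 of the 7 genes no WT whole brain of 10 months overlapped with a WT cortex, against 16.6% of all probes with whole brain higher. The difference was 2.60 ± 0.57 (SE) for Pcp2 (adjusted p = 0.0867, limma), 1.37 ± 0.19 for Cbln1 (adjusted p = 0.0654) and 0.55 ± 0.17 for Pvalb (adjusted p = 0.133). Cbln3 was not well above background in any of the 3 WT cortices, nor in WT whole brain replicate 1. That replicate (-7.4) lay below WT cortex replicate 2 (-7.2), so the tissues overlapped. Set against the bound of the cortices, the mean of the whole brains was 1.28-fold higher, which is not a minimum for every whole brain. The adjusted p of Cbln3 was 0.184 (limma).

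In WT mice of 17 months 0 of 7 genes passed, against 10.3% of all probes. An unadjusted p under 0.05 was found for 2 genes, against 13.7% of all probes in that direction, and the same 2, Zic1 (1.08 ± 0.33) and Pvalb (0.77 ± 0.27), did not overlap between the tissues, against 17.8%. Pcp2 differed by 2.78 ± 1.23 (adjusted p = 0.185, limma). Without the WT cortex replicate that stood apart, a choice made after its values were seen, Pcp2 differed by 4.08 ± 0.76 (adjusted p = 0.0542), and En2 (2.72 ± 0.40, adjusted p = 0.0461) and Zic1 (1.41 ± 0.23, adjusted p = 0.0476) passed. Neither Tg2576 comparison had a gene that passed, where 0% of all probes passed at 10 months and 1.97% at 17 months, and 1 of 6 genes at 10 months (Pvalb, background 9.92% with whole brain higher) and 0 of 6 at 17 months (background 7.88%) had an unadjusted p under 0.05. At 10 months 2 of the 6, En2 and Pvalb, did not overlap between the tissues, against 14.8% of all probes. At 17 months the Tg2576 differences ran from 1.51 ± 0.63 for Pcp2 down to 0.03 ± 0.16 for Pvalb. Without the Tg2576 whole-brain replicate 2 of 10 months, the En2 difference in that group went from 1.24 to 1.79 and the Pcp2 difference from 1.32 to 2.29, and again none passed. Without replicate 3 of the same group, its brightest, the Pcp2 difference turned to -0.13.

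With all 24 arrays in 1 model and the difference averaged over the 4 pairs, a comparison added after the data were seen, 5 of 7 genes passed with whole brain higher, against 17.6% of all probes with whole brain higher. They were Pcp2 (2.05 ± 0.57, adjusted p = 0.00862, limma), En2 (1.22 ± 0.32, adjusted p = 0.00634), Cbln1 (1.03 ± 0.25, adjusted p = 0.00424), Zic1 (0.68 ± 0.18, adjusted p = 0.00582) and Pvalb (0.50 ± 0.13, adjusted p = 0.00456). Cbln3 (adjusted p = 0.0501) and Fat2 (0.87 ± 0.35, adjusted p = 0.0563) fell just short and passed without either of the arrays that stood apart, for Fat2 at 1.06 and 1.02 log2 units. Those arrays were picked on the levels of these same genes, so leaving them out widens the difference by choice and gives no support of its own. Cbln3 also entered this test through whole brain alone. The tissues lay on different slides for the most part, and with the slide as a block 0 of 7 passed: the Pcp2 difference was then 2.46 ± 1.69 and the Pvalb difference 0.07 ± 0.38. On the only slide that held both tissues, with 4 whole brains of 10 months (3 WT and 1 Tg2576) and 4 cortices of 17 months (1 WT and 3 Tg2576), so that age and most of the genotype went with the tissue, whole brain exceeded cortex by 2.05 for Pcp2, 0.71 for Fat2, 0.54 for En2, 0.48 for Cbln1, 0.34 for Pvalb and 0.03 for Zic1. In bulk tissue, fewer cells of a type and less RNA per cell cannot be told apart.

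**Figure D3:**
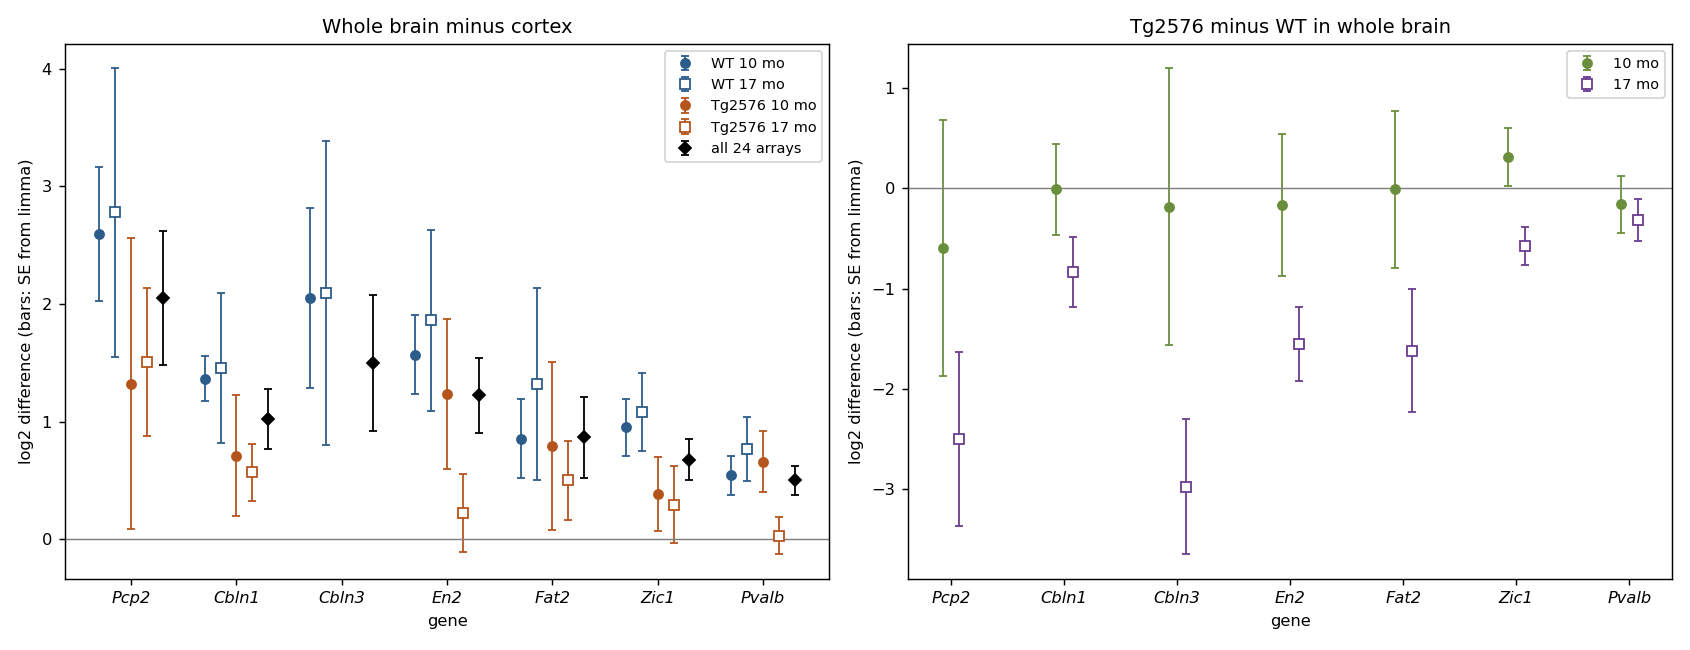
Log2 difference for each gene (x axis) between whole brain and cortex (left, by genotype and age and over all 24 arrays) and between Tg2576 and WT whole brains (right, by age), with the SE of limma's fit as bars. All differences on the left lie above 0 and all those of 17 months on the right lie below 0, from -0.32 for Pvalb to -2.98 for Cbln3, whose Tg2576 signals were not well above background.

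The second comparison, of the genotypes, was examined in whole brain at each age. At 17 months all 7 genes were lower in Tg2576 than in WT whole brains, with a median difference of -1.55 log2 units where the median over all probes was 0.01. With the background corrected by normexp instead, the median was -0.79, still with all 7 lower. None passed after adjustment, in a comparison where 0% of 36980 probes passed and the smallest adjusted p of any probe was 0.284. An unadjusted p under 0.05 was found for 5 of the 7, against 5.84% of all probes in that direction, and the methods' t-test with Benjamini-Hochberg adjustment also gave 0. The genotypes did not overlap in 4 genes, Cbln1, Cbln3, En2 and Zic1, against 9.26% of all probes with Tg2576 lower. The differences were -2.50 ± 0.87 for Pcp2 (adjusted p = 0.358, limma), -1.62 ± 0.62 for Fat2 (adjusted p = 0.372), -1.55 ± 0.37 for En2 (adjusted p = 0.342) and -0.83 ± 0.35 for Cbln1 (adjusted p = 0.387). Zic1 differed by -0.58 ± 0.19 and Pvalb by -0.32 ± 0.21. For Cbln3 the bound set by the Tg2576 arrays was 2.73-fold higher in WT, and its adjusted p was 0.342 (limma). Under the alternatives the log2 difference of Cbln3 ran from -3.66 to -0.50, so the bound holds only for the processing used here. Cbln3 was tested through the WT arrays alone, so its place in the counts above was set in part by the filter. All 6 arrays shared 1 slide, but the Tg2576 arrays were dimmer, with 75th percentiles of 507 to 612 against 642 to 761 in WT. The part this had in the detection of Cbln3 was not tested.

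Genes of other regions were read on the same 6 arrays. Of 19 hindbrain genes outside the cerebellum, 11 could be tested, and all 11 were lower in Tg2576 whole brains, with a median of -1.33 and 0 passing. Only 5 of the 19 could be tested between the ages in Tg2576 whole brain, so others of the 11 entered through the WT arrays alone. For those the filter favoured a lower Tg2576 value, so the count of 11 is no evidence of a direction. The list deviated by 1.34, 1.25 and 2.39 in the 3 WT arrays and by 1.10, 0.18 and 0.24 in the 3 Tg2576 arrays. Granule-cell genes were lower in 12 of 13 (median -0.39) and Purkinje-cell genes in 15 of 18 (median -0.23), whereas cerebral cortex genes were higher in 9 of 12 (median 0.08), and none of these passed. The part that the amount of hindbrain and cerebellum in each extract had in the genotype difference was not tested.

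At 10 months the genotypes overlapped in all 7 genes, where 17.6% of all probes did not overlap in either direction. The median difference was -0.16, 0 of 7 passed, as did 0% of all probes, and 0 of 7 had an unadjusted p under 0.05, against 11.4% of all probes in either direction. The Pcp2 difference was -0.60 ± 1.28 (adjusted p = 0.861, limma), with an SE more than its own size. Without Tg2576 replicate 2 the sign turned for 6 of 7 genes, Pcp2 going to 0.37 and Fat2 from -0.01 to 0.60, and without Tg2576 replicate 3 the Pcp2 difference was -2.05. On the slide that held 1 Tg2576 and all 3 WT arrays it was -1.57. The change of the genotype difference between the ages, tested as an interaction over the 12 whole brains, was negative for all 7 genes (median -1.38), with 0 of 7 passing and 0% of all probes. Cbln3 entered this test through WT arrays alone. Zic1 alone had an unadjusted p under 0.05 (-0.89 ± 0.38, adjusted p = 0.276), where 16.8% of all probes did. Without Tg2576 replicate 3 of 10 months the median change was -0.56, and without replicate 2 it was -1.94. Averaged over both ages, a comparison added after the data were seen, the genotype difference was -1.55 ± 0.86 for Pcp2 and -0.86 ± 0.44 for En2, and 0 of 7 passed (0% of all probes). No gene had an unadjusted p under 0.05 there, against 9.82% of all probes.

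The third comparison was of age. In WT whole brain 6 of 7 genes were higher at 17 than at 10 months, by a median of 1.22, and 1 of 7 passed with a higher level, against 12.7% of all probes in that direction and 27.8% in either. That gene was Zic1, at 0.95 ± 0.18 (adjusted p = 0.016, limma), with 3.05, 2.89 and 3.54 at 17 months against 2.04, 2.37 and 2.23 at 10 months and no overlap. Its second probe gave 0.53. Pcp2 differed by 1.61 ± 0.79 (adjusted p = 0.174), En2 by 1.35 ± 0.46 (adjusted p = 0.0727) and Cbln1 by 0.97 ± 0.35 (adjusted p = 0.0886), while Pvalb differed by -0.04 ± 0.25. Zic1, Cbln1 and En2 had an unadjusted p under 0.05, 3 of 7 against 18.8% of all probes with a higher level, and Zic1 and Cbln1 did not overlap between the ages, 2 of 7 against 21.7%. The 3 WT whole brains of 10 months lay on 1 slide and those of 17 months on another, each with arrays of other groups. Age and slide therefore cannot be told apart here. In a model of all 24 arrays with the slide as a block the Zic1 difference was 0.58 (adjusted p = 0.69). Over both genotypes, a comparison added after the data were seen, it was 0.50 ± 0.19 (adjusted p = 0.0577, limma), 0 of 7 genes passed against 38.4% of all probes, and 1 of 7, Zic1, had an unadjusted p under 0.05 against 47.8%.

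The hindbrain list differed with age in the same arrays. All 11 of its tested genes were higher at 17 months in WT whole brain and 5 passed, against 12.7% of all probes with a higher level, Hoxc4 by 3.28 ± 0.71, Hoxb5 by 3.15 ± 0.32 and Hoxb4 by 3.12 ± 0.18 among them (adjusted p = 0.0215, 0.00456 and 0.00394, limma). Only 5 genes of the list could be tested between the genotypes in whole brain at 10 months, so others of the 11 entered through the arrays of 17 months alone. For those the filter favoured a rise, and the size of the difference rests on 10-month signals near the detection limit. Among the cerebellar lists, 8 of 18 Purkinje-cell genes rose, among them the homeobox gene Lhx5 (1.22 ± 0.17) and the glutamate transporter gene Slc1a6 (0.72 ± 0.20), and 1 fell. Of 6 genes of other cerebellar cells 3 rose and 1 fell. Of 13 granule-cell genes 1 rose (Grm4, 0.38 ± 0.10), a share below that of all probes. Lists unrelated to the cerebellum rose in part in the same comparison, with 5 of 10 meningeal, 3 of 7 thalamic and 4 of 12 cerebral cortex genes. In Tg2576 whole brain the members showed no such pattern, with a median of -0.11 over the 6 tested, 2 higher and 4 lower, and 0 of 6 passing against 12.1% of all probes in either direction. None had an unadjusted p under 0.05, where 31.7% of all probes did. These values turned with single arrays of 10 months, Pcp2 going from -0.30 to 1.16 without replicate 3 and to -1.27 without replicate 2, and on the slide that held all 3 arrays of 17 and 2 of 10 months it was -0.79.

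In the cortex no gene passed in any of the 4 comparisons of genotype or age. Between genotypes the median over the 6 genes tested was 0.40 at 10 months and 0.07 at 17 months, where 0% of all probes passed at either age. At 10 months Zic1 differed by 0.88 ± 0.28 (adjusted p = 0.45, limma) and Pvalb by -0.28 ± 0.11 (adjusted p = 0.502), the 2 of 6 genes with an unadjusted p under 0.05, against 9.95% of all probes. Zic1 was the 1 gene that did not overlap, against 8.29% with Tg2576 higher. At 17 months 0 of 6 had an unadjusted p under 0.05, against 9.32%. Pcp2 then differed by -1.23 ± 1.05 and Fat2 by -0.80 ± 0.62, and without the WT replicate that stood apart by 0.074 and -0.043. On the slide that held all 3 Tg2576 arrays and 1 WT array of that age, the Pcp2 difference was 0.15. Between ages the median was 0.85 in WT mice, where 4.56% of all probes passed, and 0.22 in Tg2576 mice, where 10.3% did. The WT value rested on the same replicate, without which the Pcp2 difference with age went from 1.42 to 0.12 and that of En2 from 1.06 to 0.20. An unadjusted p under 0.05 was found for 0 of 6 genes in WT mice, against 26% of all probes, and for 2 of 6, En2 and Pvalb, in Tg2576 mice, against 31%. The En2 difference in Tg2576 mice was 0.98 ± 0.28 (adjusted p = 0.0736) with no overlap between the ages, against 19.2% of all probes that did not overlap and were higher at 17 months. The change of the genotype difference between the ages passed for 0 of 6 genes, as for 0% of all probes, and Pvalb alone had an unadjusted p under 0.05 (0.69 ± 0.28, adjusted p = 0.51), against 9.41%.

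The genes were next compared with each other. Over the 12 whole brains the 21 pairs of genes correlated with a median r of 0.89 and a range of 0.53 to 0.98, and after the mean of each group was removed the median was 0.93, so the arrays inside a group varied along the same line as the groups. These values describe 12 arrays that share their RNA, labelling and slide, and no test was made of them. Against the mean of the 6 others, En2 (r = 0.99), Fat2 (0.98), Pcp2 (0.98), Cbln3 (0.96) and Cbln1 (0.95) lay closest to the common line, and Zic1 (0.83) and Pvalb (0.81) farther off. Leaving out the 2 arrays farthest from the median left these at 0.99, 0.97, 0.96, 0.93 and 0.90, and Zic1 and Pvalb at 0.62 and 0.58. For each log2 unit of that mean, Pcp2 changed by 1.96 units, Fat2 by 1.13, En2 by 0.99, Cbln1 by 0.61, Zic1 by 0.36 and Pvalb by 0.26. The genes therefore did not share a size of change. Cbln3 gave 2.03, in part from signals under the detection limit. The order of the arrays was shared less closely by Zic1 and Pvalb. Their Spearman correlations with the mean of the 6 others were 0.79 and 0.685, and that between the pair was 0.35.

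In the cortex the median r of the 21 pairs was 0.57. It fell to 0.12 without the WT replicate that stood apart, so the common line in cortex rested largely on that array. Single pairs then ran from -0.44 for Pcp2 and Pvalb to 0.92 for Cbln1 and Zic1.

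**Figure D4:**
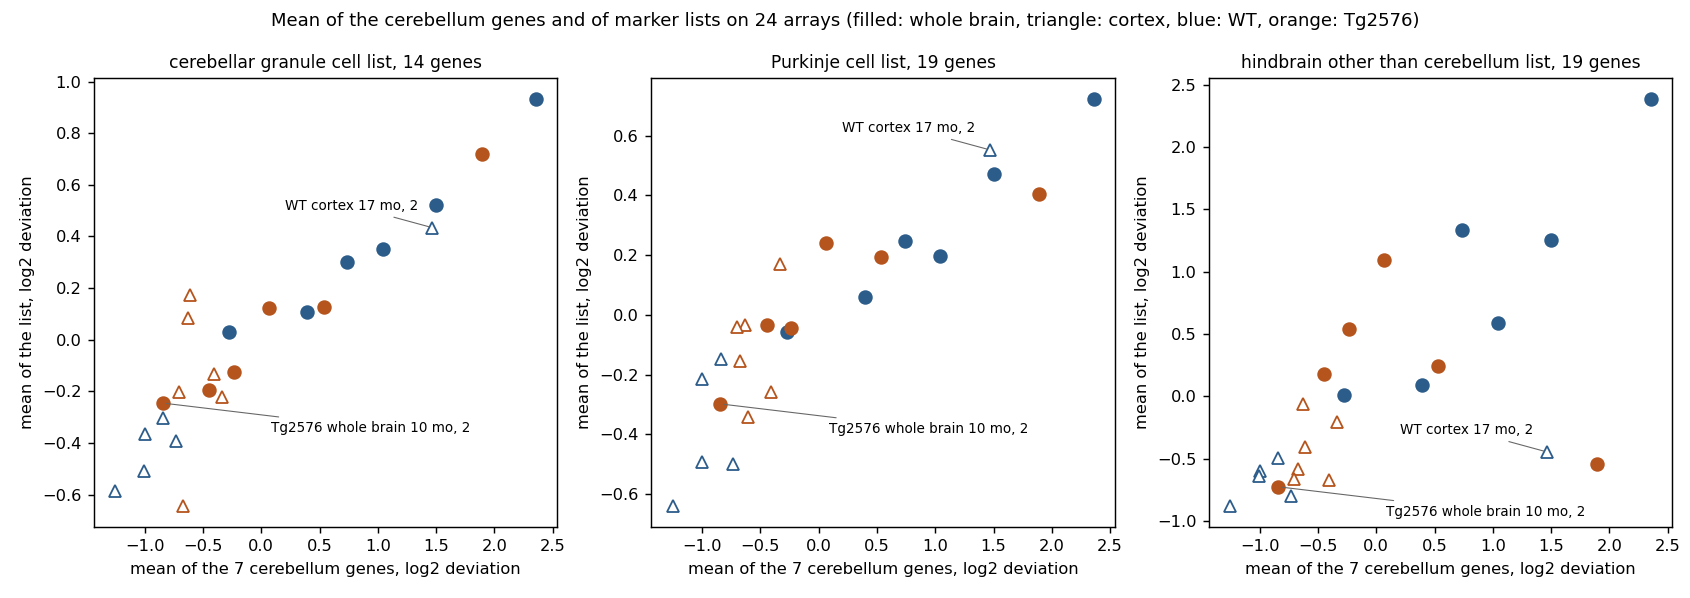
Mean log2 deviation of the 7 genes (x axis) against that of a marker list (y axis) on each of 24 arrays, for granule-cell, Purkinje-cell and other hindbrain genes, with filled points for whole brain, triangles for cortex, blue for WT and orange for Tg2576. The whole brains lie along a line for the granule-cell list (r = 0.99) and the Purkinje-cell list (r = 0.94), and scatter for the hindbrain list (r = 0.54).

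The mean of the 7 genes was also set beside the marker lists over the 12 whole brains. It correlated with the mean of the granule-cell genes at r = 0.99 (Spearman 0.99) and with that of the Purkinje-cell genes at r = 0.94 (Spearman 0.92), but with the hindbrain list at r = 0.54 (Spearman 0.55), which came to 0.23 once group means were removed and to 0.71 without the 2 arrays farthest from the median. Other cerebellar cells (7 genes) gave r = 0.68, with 0.50 after group means were removed, and meninges, a list unrelated to the cerebellum, 0.58, so the lists did not fall into cerebellar and other lists by r alone. The cerebellin pathway beyond Cbln1 and Cbln3 (other cerebellins such as Cbln2 and Cbln4, their synaptic partners and related secreted ligands) correlated at 0.26, and the list for cortical parvalbumin interneurons at 0.26. The 7 genes and the other hindbrain genes took different ranks on several arrays. Tg2576 whole brain replicate 3 of 10 months had rank 2 of the 12 whole brains in the mean of the 7 genes, with a granule-cell deviation of 0.72, while its hindbrain list stood at -0.54, rank 11 of 12, and Tg2576 replicate 1 of 17 months had rank 8 in the 7 genes and rank 4 in the hindbrain list (1.10).

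Over all 24 arrays the lists differed between the tissues in their own way. Of 14 granule-cell genes 4 rose in whole brain and 0 fell, where 17.6% of all probes rose and 37.5% passed in either direction, and 6 of the 14 had lower values. The 4 were led by Gabra6, the granule-cell GABA-A receptor subunit (3.44 ± 0.98, adjusted p = 0.0105, limma). Of 18 Purkinje-cell genes 5 rose, among them Ppp1r17 (2.23 ± 0.61), Lhx5 (1.90 ± 0.53) and Slc1a6 (0.43 ± 0.10), and 2 fell, among them the calcium-channel gene Itpr1 (-0.20 ± 0.06), named after its value was seen. Of 6 genes of other cerebellar cells 1 rose and 2 fell (median -0.09), and of 10 meningeal genes 6 rose. Of the 11 cerebellin-pathway genes 1 rose. Of the hindbrain genes 8 of 11 rose, and of the cortex list 5 of 12 and of the striatum list 8 of 10 fell. Of the 19 hindbrain genes in the list, 11 were well above background on no cortex array. Part of those tested therefore entered through whole brain alone, where they were high. No test of a list was made, and with the slide as a block 0 of the 7 genes themselves passed.

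With only the 7 genes left out, 14692 genes well above background on all 12 whole brains were ranked by their correlation with the mean of the 7 genes there, and 20 exceeded 0.9. The 10 most alike were Crtam (r = 0.96), Comp (0.96), Dao (0.96), Cnksr3 (0.96), Patj (0.95), Mybpc3 (0.94), Kcng4 (0.94), Il20rb (0.94), Homer3 (0.93) and Arhgef33 (0.93), 1 of which, the scaffold gene Homer3, was in a marker list (Purkinje cell). Crtam, an immunoglobulin-superfamily adhesion gene, spanned 5.96 log2 units over the whole brains and Dao, which encodes D-amino acid oxidase, 5.43. After group means were removed, r ran from 0.90 for Homer3 and Kcng4 to 0.99 for Crtam. The 10 genes were picked for a high r on these same 12 arrays, so this gives no support of its own. Over the 12 cortex arrays, with the WT replicate that stood apart among them, r ran from 0.55 for Kcng4 to 0.92 for Crtam.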

How the data were processed

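The 24 mRNA arrays were of 1 colour, and the 24 miRNA arrays of the series were not used here. Per the file headers, the authors ran Agilent Feature Extraction (10.7.3.1), and the deposited intensity is its processed signal per spot after subtraction of background, without scaling across arrays. The authors also deposited log2 values per probe. For at least 99.8% of probes these equalled, to within 0.01, the log2 intensity less 1 number for the array near its 75th percentile. Spots marked as outliers were left out, spots of a probe were averaged, and log2 intensities were centred on the 75th percentile of each array. Symbols were matched through RefSeq transcripts to 26056 of 55681 probes, and no coordinates were taken for probes because the array was designed on another build.

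Probes clearing the background mark on 2 or more arrays of either group were tested. Each of the 12 comparisons of 2 groups used its 6 arrays in limma 3.58.1 (R 4.3.3), and the 2 interactions the 12 arrays of a tissue, with Benjamini-Hochberg adjustment at 0.05 over all probes. The fit was tested on simulated data. Comparisons over pooled groups were added after the data were seen. Where all 3 arrays of a group missed that mark, a fold is given as a bound, set against the dimmest probe to clear it on each array, or the signal of the gene itself if brighter. Arrays have no read depth, and their number, 3 in a group, limits the precision.

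The genes and the marker lists were chosen with earlier results of these data known. Named were all 7 genes, from each list at most 4 genes per comparison, those that passed with the largest difference, the 10 genes most like the mean of the 7, and App and Prnp. Some genes of the marker lists are counted but not reported here by name. The alternatives were normexp (offset 50), median centring, quantile normalization, the authors' log2 values, no filter, the mean over probes, all 24 arrays in 1 model, a block for slide or for replicate number, leaving out each array, and the methods' t-test (unpaired, equal variance, with no cut on the fold). Normexp used median spot signals, since the files used here hold no mean. The replicate numbers did not pair the samples: in no comparison did all 3 same-numbered pairs deviate together with r over 0.1.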

Additional observations from a re-analysis of the deposited data

How the results depend on the processing

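Of the values for single genes under the alternatives, 35 moved past the threshold, 7 fell back from it and 1696 stayed on their side. The sign changed in 66 of 1543 values under planned and in 15 of 195 under added alternatives, none of them past the threshold. With normexp the number of genes that passed was 5 for whole brain minus cortex in WT mice of 10 months, 3 for age in WT whole brain and 1 for age in Tg2576 cortex, and the median genotype difference in whole brain at 17 months was -0.79. The methods' t-test at an unadjusted p under 0.05 gave 5 genes for whole brain minus cortex in WT mice of 10 months, 2 for genotype in whole brain at 17 months and 1 for age in Tg2576 cortex, and after Benjamini-Hochberg adjustment 0 for age in WT whole brain. With all 24 arrays in 1 model 4 genes passed for whole brain minus cortex in WT mice of 17 months. No share over all probes is given beside the counts under alternatives, here, above or below. Those counts show how the calls moved and not how the 7 genes compare with other probes.

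With the slide as a block in that model, the median was 2.01 for whole brain minus cortex in WT mice of 10 months, -0.16, the sign turned, in Tg2576 mice of 17 months, and 0.83 for age in Tg2576 cortex. No gene passed for age in WT whole brain (0), and 0 passed for whole brain minus cortex over all groups. Without the filter the median genotype difference in the cortex of 10 months was 0.64. With the replicate block 2 genes passed for age in WT whole brain (Zic1 and Cbln3) and 1 for age in whole brain of both genotypes (Zic1). The numbers mark no known pairing, so this is a change of model. The cause of these changes was not tested.

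Leaving out single arrays gave medians of 0.19 to 0.53 for genotype in the cortex of 10 months and of -0.029 to 0.40 for age in Tg2576 cortex (the lowest, with the sign turned, without Tg2576 cortex replicate 2 of 17 months), and counts of 0 to 2 for whole brain minus cortex in WT mice of 17 months (2 without WT cortex replicate 2), 0 to 1 for age in Tg2576 cortex (1 without Tg2576 cortex replicate 3 of 17 months) and 0 to 3 for age in whole brain of both genotypes (3 without Tg2576 whole brain replicate 3 of 10 months). Without either or both of the arrays that stood apart, 7 passed for whole brain minus cortex over all groups. Those arrays were picked on the levels of these same genes, so this count gives no support of its own. The signal limits what Cbln3 shows, which was well above background on 7 of 24 arrays.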
